A study of Mus musculus with 4 samples.

Results

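Hemoglobin carries oxygen in red blood cells and is built from alpha-type and beta-type globin chains, each of which holds a heme. Mouse embryos first release primitive red cells from the yolk sac, which make the embryonic chains, and later definitive red cells from the fetal liver, which make the adult chains. The genes of each type lie in 1 cluster with the embryonic genes ahead of the adult genes, and the move from embryonic to adult chains is called globin switching. The 9 genes described here, of 20421 in the table, were taken by name: the embryonic beta-type globins Hbb-y and Hbb-bh1, the embryonic alpha-type globin Hba-x, the adult beta globins Hbb-bs and Hbb-bt, the adult alpha globins Hba-a1 and Hba-a2, the heme enzyme Alas2 and the anion exchanger Slc4a1. They were proposed after ratios of these data had been seen, so the values are a description and no test is attached to them.

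RNA was sequenced from the brain of C57BL/6 mouse embryos at embryonic day 15. Of 4 listed samples, 2 carry the genotype WT and 2 the genotype FOXM1f/+;Nestin-Cre, in which a Cre recombinase driver active in neural progenitors accompanies a FOXM1 allele whose construction the labels do not give. The titles of the WT samples read nestin and foxm1, so controls may carry 1 of the alleles, and the table holds 1 read count column per genotype without saying which embryo or pool it came from. The WT column held 17543705 reads and the FOXM1f/+;Nestin-Cre column 17856653 reads over genes. Each column is called a library below. With 1 library per genotype nothing here has a replicate check, and every interval is an exact 95% interval that covers counting error only. The libraries also differed in sex-linked RNA, with Xist at 9628 reads in the FOXM1f/+;Nestin-Cre library and 5 in WT, and they carried the markers of embryonic brain, all 20 of which were present. In bulk tissue, fewer red cells and less RNA per red cell cannot be told apart, and no label says whether blood was washed out.

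The coding sequences show which globin reads can be told apart, and they are printed for that reason. Each line gives bases 361 to 420 of the coding sequence, counted from the A of the start codon, read from GENCODE M21 transcripts (GRCm38). Capitals mark bases that differ from Hbb-bs in the beta-type genes and from Hba-a1 in the alpha-type genes.
Hbb-bs: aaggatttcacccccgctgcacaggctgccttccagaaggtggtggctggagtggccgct
Hbb-bt: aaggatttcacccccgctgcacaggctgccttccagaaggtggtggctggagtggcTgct
Hbb-y: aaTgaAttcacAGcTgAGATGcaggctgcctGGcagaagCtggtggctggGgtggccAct
Hbb-bh1: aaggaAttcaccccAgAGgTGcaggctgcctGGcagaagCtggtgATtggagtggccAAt
Hba-a1: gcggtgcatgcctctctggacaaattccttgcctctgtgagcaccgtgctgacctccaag
Hba-a2: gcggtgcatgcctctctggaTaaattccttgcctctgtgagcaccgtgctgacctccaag
Hba-x: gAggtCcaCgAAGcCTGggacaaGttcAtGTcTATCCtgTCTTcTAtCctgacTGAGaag

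Hbb-bs and Hbb-bt differ at 1 of 444 coding bases, C417T, and Hba-a1 and Hba-a2 at 1 of 429, C381T, with the Hbb-bs or Hba-a1 base first. The embryonic genes are far from their adult counterparts. Hbb-y shares 74.3% of coding bases with Hbb-bs, Hbb-bh1 74.1% with Hbb-bs, and Hba-x 62.0% with Hba-a1, while Hbb-y and Hbb-bh1 share 76.4% with each other. The sources used here do not say how reads that fit several places were counted. Values of a single adult copy are therefore uncertain, and the sum of each adult pair is given beside them. If shared reads were left out of the counts, the sums lack them too, and embryonic shares of globin reads would come out too high. How far this bears on the values below was not tested.

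Embryonic globins were the part of the set that differed most between the libraries. Hbb-y, the epsilon-type chain of primitive red cells (ENSMUSG00000052187, chromosome 7, 103851749 to 103853216, GRCm38, minus strand), had 3194 reads in the FOXM1f/+;Nestin-Cre library and 499 in WT. In CPM, the read count scaled to the library total, that is 179 (173 to 185) against 28.4 (26.0 to 31.0), a ratio of 6.29 (5.72 to 6.92). The counting intervals of the libraries lie far apart. Hba-x, the zeta-type partner chain (ENSMUSG00000055609, chromosome 11, 32276400 to 32278116, plus strand), had 400 against 150 reads. Its level was 22.4 CPM (20.3 to 24.7) against 8.55 CPM (7.24 to 10.03), 2.62-fold higher in the FOXM1f/+;Nestin-Cre library (2.17 to 3.18). Hbb-bh1, the second embryonic beta-type chain (ENSMUSG00000052217, chromosome 7, 103841637 to 103843164, minus strand), was scarce, with 37 against 8 reads. That is 2.07 against 0.456 CPM and a ratio of 4.54, and the few reads leave an interval from 2.08 to 11.3.

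The adult globins held most globin reads in both libraries and lay closer together. Hbb-bs, an adult beta chain gene (ENSMUSG00000052305), had 7824 reads in the FOXM1f/+;Nestin-Cre library and 5942 in WT, or 438 against 339 CPM. Its ratio was 1.29 (1.25 to 1.34). Its near copy Hbb-bt (ENSMUSG00000073940) had 1260 against 1244 reads, 70.6 against 70.9 CPM, and a ratio of 0.995 (0.919 to 1.08). Summed, the adult beta pair was 1.24-fold higher in the FOXM1f/+;Nestin-Cre library (1.20 to 1.28). Hba-a1 (ENSMUSG00000069919) had 7946 against 4604 reads, 445 against 262 CPM, and a ratio of 1.70 (1.64 to 1.76). Hba-a2 (ENSMUSG00000069917), whose coding sequence is almost the same, had 175 against 184 reads and a ratio of 0.934 (0.755 to 1.16). The adult alpha pair together was 1.67-fold higher (1.61 to 1.73), which follows Hba-a1 because Hba-a2 adds few reads.

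The erythroid genes outside the globin clusters had similar counts in the libraries. Alas2, which makes the first precursor of heme in red cells (ENSMUSG00000025270, X chromosome, 150547375 to 150570638), had 257 reads in the FOXM1f/+;Nestin-Cre library and 275 in WT. Its level was 14.4 CPM (12.7 to 16.3) against 15.7 CPM (13.9 to 17.6), a ratio of 0.918 (0.772 to 1.09). Alas2 is X-linked and the libraries differ in Xist, whose part in this value was not tested. Slc4a1, the band 3 anion exchanger of the red cell membrane (ENSMUSG00000006574, chromosome 11, 102348824 to 102366203), had 39 against 35 reads. That is 2.18 against 1.99 CPM, with a ratio of 1.09 and an interval from 0.676 to 1.78, which leaves room for a difference in either direction. In both genes the counting intervals of the libraries overlap.

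**Figure D1:**
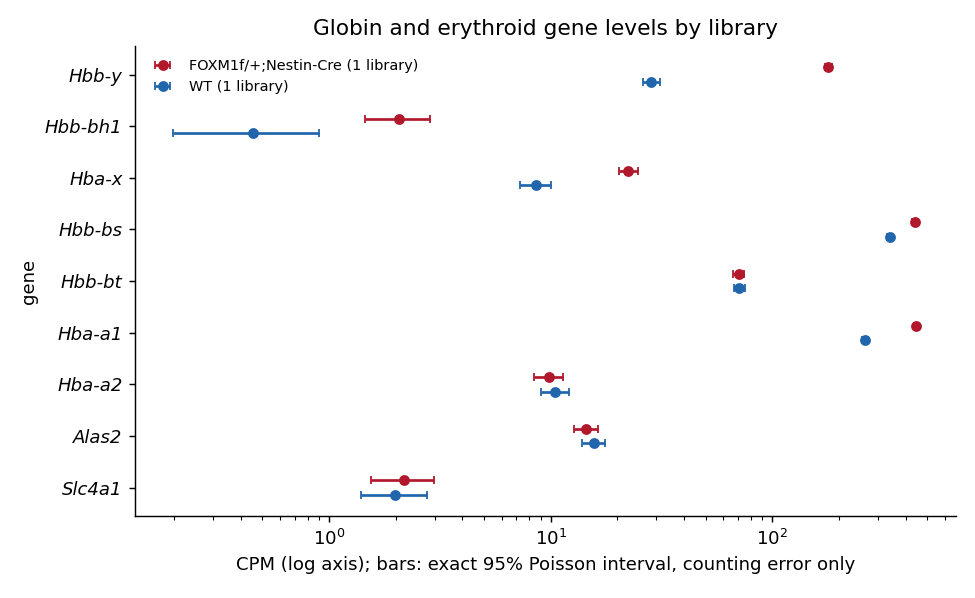
CPM of the 9 genes on a log axis, 1 point per library, with exact 95% Poisson intervals that cover counting error only. Hbb-y lies at 179 against 28.4 CPM, while the points of Hbb-bt, Hba-a2, Alas2 and Slc4a1 lie within each other's intervals.

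All 9 genes averaged 1 CPM or more over the libraries, the minimum set for counts of genes, and 8 had at least 1 CPM in both libraries. Hbb-bh1 met the minimum through the FOXM1f/+;Nestin-Cre library. The 3 embryonic globins were 2-fold or more higher, and no gene of the 9 was lower by that much. Of the 14557 genes that met this minimum, 0.522% differed by 2-fold or more upward in the FOXM1f/+;Nestin-Cre library and 1.83% by 2-fold or more downward. Of the 9, 5 had an interval above 1 and none below, where 16.5% of all genes lay above and 19.2% below. Since the genes were proposed with this contrast known, their counts are not read against these shares. When the minimum was raised to a mean of 10 CPM, 6 of 10138 genes (0.0592%) had ratios of 2 or more, with Hbb-y and Hba-x among them. Hba-x, at 8.55 CPM in WT, met the raised minimum through the FOXM1f/+;Nestin-Cre library, and nothing is read from its place there. The others were Xist, Eno1b, the Gt(ROSA)26Sor transcript and the pseudogene Gm4735.

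Within each library, embryonic reads were set against adult globin reads, a comparison that does not depend on how the libraries are scaled. It does depend on how reads shared by the adult copies were counted, which is not stated. In the FOXM1f/+;Nestin-Cre library 3631 of 20836 globin reads were embryonic, 17.4% (16.9 to 17.9, exact Clopper-Pearson interval). In WT 657 of 12631 were embryonic, 5.201% (4.82 to 5.60). There were thus 4.74 adult reads for each embryonic read in the FOXM1f/+;Nestin-Cre library and 18.2 in WT, and the odds of an embryonic read differed 3.85-fold (3.53 to 4.20). Adult reads outnumbered embryonic reads in both libraries.

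The shift was not equal in the clusters. Of the beta-type reads, 26.2% (25.5 to 27.0) were embryonic in the FOXM1f/+;Nestin-Cre library and 6.59% (6.05 to 7.17) in WT, an odds ratio of 5.04 (4.57 to 5.57). Of the alpha-type reads, 4.69% (4.25 to 5.17) against 3.04% (2.58 to 3.56) were embryonic, an odds ratio of 1.57 (1.30 to 1.92). The intervals of these odds ratios do not overlap. For each Hbb-y read there were 0.125 Hba-x reads (0.113 to 0.139) in the FOXM1f/+;Nestin-Cre library and 0.301 (0.249 to 0.361) in WT, so the embryonic pair of chains was itself differently balanced. The Hbb-y to Hbb-bh1 balance was 86.3 (62.5 to 123) against 62.4 (31.4 to 145), with intervals that overlap widely.

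**Figure D2:**
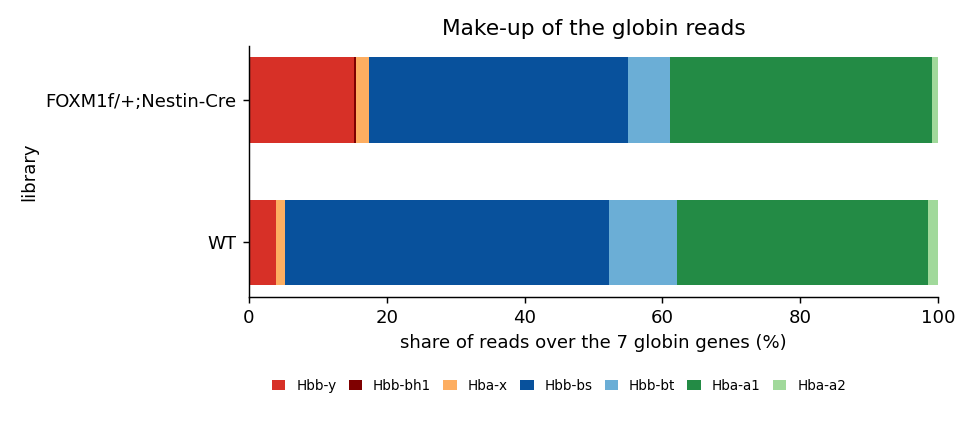
Share of each of 7 globin genes in the globin reads of each library, in percent, as stacked bars. Hbb-y takes 15.3% of the bar in the FOXM1f/+;Nestin-Cre library and 3.95% in WT, while Hba-a1 takes 38.1% and 36.4%.

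Globin reads as a whole were a small part of each brain library. The 7 genes took 0.117% (0.115 to 0.118) of reads in the FOXM1f/+;Nestin-Cre library and 0.0720% (0.0707 to 0.0733) in WT, a ratio of 1.62 (1.59 to 1.66). Summed embryonic globins were 203 against 37.4 CPM, 5.43-fold higher (4.996 to 5.91), and summed adult globins 963 against 682 CPM, 1.41-fold higher (1.38 to 1.45). Alpha-type and beta-type sums were 1.70-fold (1.64 to 1.76) and 1.57-fold (1.53 to 1.62) higher. Their balance was 0.692 alpha-type reads per beta-type read (0.673 to 0.711) against 0.642 (0.619 to 0.665), a ratio of 1.08 (1.03 to 1.13). That is a small difference beyond counting error, while the make-up of the beta-type sum differed more. Among adult genes alone the balance was 0.894 (0.868 to 0.921) against 0.666 (0.642 to 0.691).

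**Figure D3:**
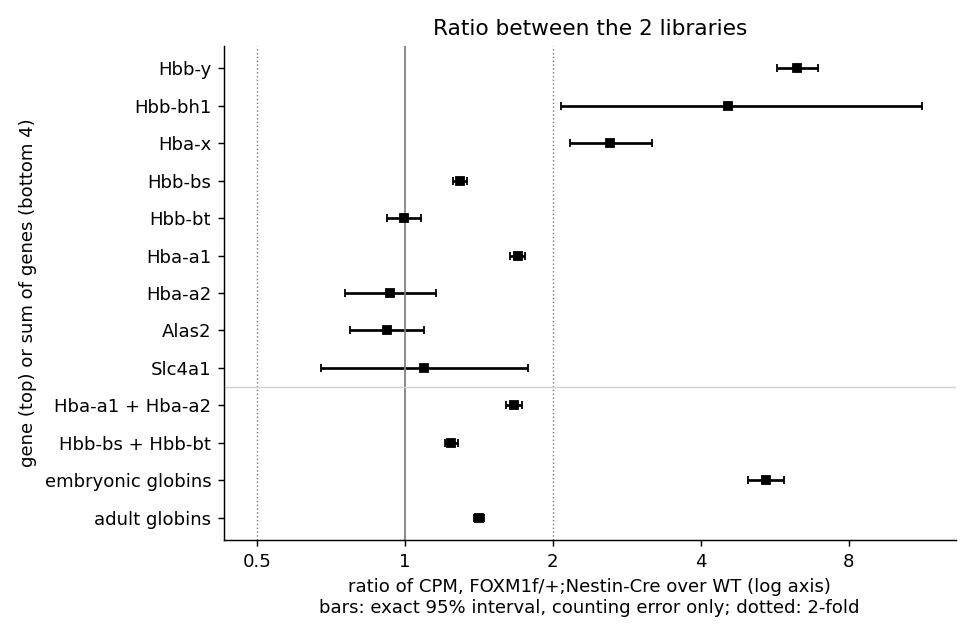
Ratio of CPM between the libraries, FOXM1f/+;Nestin-Cre over WT, on a log axis with exact 95% intervals for counting error, for the 9 genes and for 4 sums. The embryonic sum lies at 5.43 and the adult sum at 1.41, and the intervals of Hbb-bt, Hba-a2, Alas2 and Slc4a1 cross 1.

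Per length of exon, which adjusts for the length of a gene but not for shared reads, the order of the genes changed at Hbb-y. In the FOXM1f/+;Nestin-Cre library the highest levels were those of Hbb-bs, 570 CPM per kb (558 to 583), and Hba-a1, 548 CPM per kb (536 to 560.1), whose intervals overlap. Hbb-y followed at 283 CPM per kb (273 to 292), above Hbb-bt at 100.4 (94.9 to 106). In WT the order was Hbb-bs at 441 CPM per kb (430 to 452), Hba-a1 at 323 (314 to 333), Hbb-bt at 101 (95.3 to 107) and Hbb-y at 44.9 (41.1 to 49.0). Below these, Hba-x stood at 23.9 CPM per kb (21.6 to 26.3) in the FOXM1f/+;Nestin-Cre library, above Hba-a2 at 14.7 (12.6 to 17.0), and in WT at 9.11 (7.71 to 10.7), below Hba-a2 at 15.7 (13.5 to 18.2). Alas2 stood at 5.99 against 6.52 CPM per kb, Hbb-bh1 at 3.38 against 0.744 and Slc4a1 at 0.446 against 0.408. The WT intervals of Hbb-bh1 (0.321 to 1.47) and Slc4a1 (0.284 to 0.567) overlap. Exon lengths come from GENCODE M21, whose models give Hba-a1 812 and Hba-a2 667 bases, so the levels of close copies also depend on the gene model. The counts of adult copies also depend on how shared reads were handled, so the places of Hbb-y and Hba-x among them are uncertain.

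Among the adult copies the reads were unevenly divided, and not alike in the libraries. There were 6.21 Hbb-bs reads per Hbb-bt read (5.85 to 6.60) in the FOXM1f/+;Nestin-Cre library and 4.78 (4.49 to 5.08) in WT. There were 45.4 Hba-a1 reads per Hba-a2 read (39.1 to 53.0) against 25.02 (21.6 to 29.2). With 1 differing coding base per pair, how far these divisions come from the counting of shared reads was not tested.

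Relative to the globins, the other erythroid genes were scarcer in the FOXM1f/+;Nestin-Cre library. Alas2 had 12.3 reads per 1000 globin reads (10.9 to 13.9) there and 21.8 (19.2 to 24.5) in WT, 0.567 times as many (0.475 to 0.675). Against adult globin reads alone it had 14.9 (13.2 to 16.9) and 23.0 (20.3 to 25.9) per 1000. Slc4a1 had 1.87 per 1000 globin reads (1.33 to 2.56) against 2.77 (1.93 to 3.86), a ratio of 0.675 whose interval, 0.417 to 1.10, spans 1.

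The ratios of the main globin genes were ordered like the genes along each cluster. In the beta cluster the genes lie in the order Hbb-y, Hbb-bh1, Hbb-bs and Hbb-bt, with starts 10.1, 25.1 and 39.2 kb from that of Hbb-y, and their ratios were 6.29, 4.54, 1.29 and 0.995 in that order. In the alpha cluster Hba-a1 starts 7.11 kb and Hba-a2 20.1 kb from Hba-x, and the ratios were 2.62, 1.70 and 0.934. The intervals of Hbb-y and Hbb-bh1 overlap, and the adult copies carry the uncertainty given above, so the order rests on embryonic against adult genes. The theta-type genes Hbq1b and Hbq1a, each of which lies behind an adult alpha gene, had 12 against 3 and 5 against 1 reads. Their ratios of 3.93 (1.06 to 21.7) and 4.91 (0.550 to 232) do not follow that order as they stand, and are too imprecise to place in it.

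**Figure D4:**
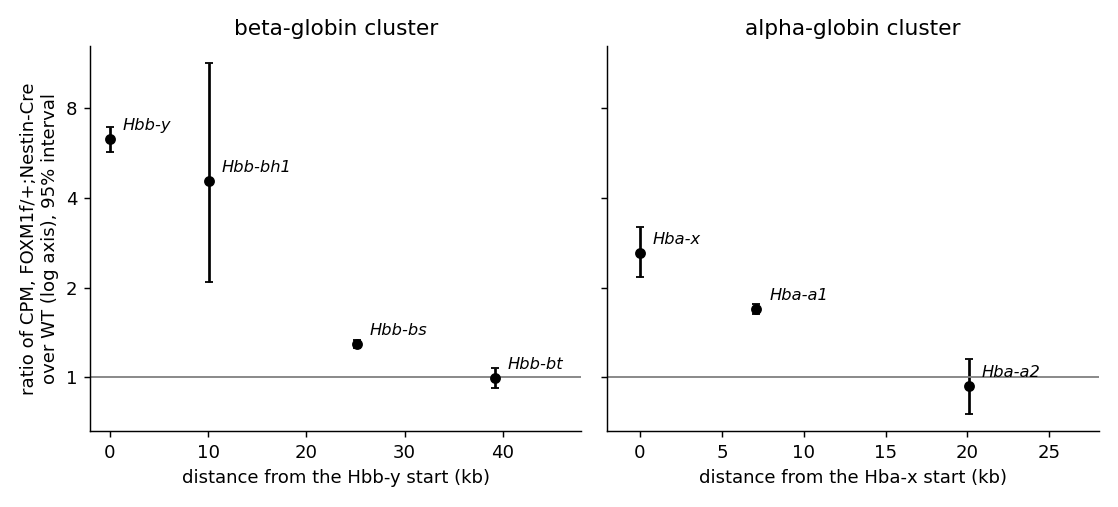
Ratio of CPM, FOXM1f/+;Nestin-Cre over WT, on a log axis against the distance in kb of each gene's start from that of Hbb-y or Hba-x, with exact 95% counting intervals. Genes with under 20 reads in all are left out, which removes Hbq1b and Hbq1a, whose ratios do not follow the order. The ratios run from 6.29 at Hbb-y to 0.995 at Hbb-bt and from 2.62 at Hba-x to 0.934 at Hba-a2.

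The promoters of the globin genes are shown because the embryonic and adult genes, which differed in their ratios, can be compared there. Each line gives the 120 bases before the gene's start in RefSeq (GRCm38.p6), 5′ to 3′ on the gene's strand. Capitals mark CACCC, the box bound by Klf1, CCAAT, the TATA-like ATANAA and GATAA, the core bound by Gata1, all searched on both strands. The motifs were chosen from textbook knowledge of globin promoters, and the form of the TATA-like motif after the sequences were seen.
Hbb-y: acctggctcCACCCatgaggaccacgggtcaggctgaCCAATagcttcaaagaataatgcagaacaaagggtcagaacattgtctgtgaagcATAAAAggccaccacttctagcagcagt
Hbb-bs: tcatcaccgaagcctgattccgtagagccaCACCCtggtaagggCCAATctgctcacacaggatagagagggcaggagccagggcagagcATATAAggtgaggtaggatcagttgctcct
Hbb-bt: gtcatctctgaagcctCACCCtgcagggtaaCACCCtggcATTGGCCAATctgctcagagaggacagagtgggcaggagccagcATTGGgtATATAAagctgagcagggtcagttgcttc
Hba-x: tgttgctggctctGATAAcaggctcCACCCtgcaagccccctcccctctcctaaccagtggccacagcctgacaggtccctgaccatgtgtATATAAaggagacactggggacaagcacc
Hba-a2: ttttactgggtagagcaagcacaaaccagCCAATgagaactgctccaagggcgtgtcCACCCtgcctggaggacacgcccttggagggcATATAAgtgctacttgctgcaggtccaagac

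These windows lie at chr7:103853208-103853327 (Hbb-y), chr7:103827929-103828048 (Hbb-bs) and chr7:103813924-103814043 (Hbb-bt) on the minus strand, and at chr11:32276480-32276599 (Hba-x) and chr11:32296372-32296491 (Hba-a2) on the plus strand. The table of promoters held 7 of the 9 genes, all but Hbb-bh1 and Slc4a1. That of Hba-a1 repeats the Hba-a2 window letter for letter, shifted by 3 bases, so the adult alpha copies also shared their promoter letters. All 7 held CACCC and ATANAA, which 31.7% and 17.6% of 32851 promoter windows of that length hold. CCAAT was in 5 of 7 (21.3% of all windows), all but Hba-x and Alas2, and GATAA in Hba-x and Alas2 (10.5% of all windows). In Hbb-y the CACCC began 111 bases before the start, against 90 in Hbb-bs and 104 and 89 in Hbb-bt. ATANAA overlapped GATAA in Alas2 alone. These are matches of letters in 1 window and do not set embryonic genes apart from adult genes.

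Genes of red cells were further taken from 4 lists, which also hold Alas2 and Slc4a1, and their intervals lay on either side of 1. Of 73 listed genes 66 were in the table and 50 met the minimum. Among those 50, 10 intervals lay above 1, that is higher in the FOXM1f/+;Nestin-Cre library, 14 below and 26 spanned it. Over all genes 16.5% of intervals lay above 1 and 19.2% below, the shares to set beside the counts of each list that follows. The median log2 ratio of the 50 was -0.02, beside -0.01 over all 14557 genes. Many of these genes, such as Add2, Epb41 and Prdx2, are known to be used by neurons too, so a list of this kind reads brain as well as blood.

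In heme synthesis, 13 of 14 genes met the minimum, 3 intervals lay above 1, 2 below and 8 spanned it, and the median log2 ratio was 0.01. Alas1, the form of the first enzyme used outside red cells, had 794 against 910 reads and a ratio of 0.857 (0.778 to 0.944). Alad, the next enzyme of the pathway, had 717 against 621 reads and a ratio of 1.13 (1.02 to 1.27). Ppox and Urod, later enzymes, had 900 against 899 and 873 against 792 reads, with intervals that span 1. Fech, which inserts the iron, had 414 against 443 reads.

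In the red cell membrane list, 13 of 20 genes met the minimum, 2 intervals lay above 1, 5 below and 6 spanned it, with a median log2 ratio of -0.04. Aqp1, a water channel of red cells that choroid plexus epithelium also makes, had the lowest ratio of those 13, 0.0833 (0.0525 to 0.127), with 24 against 283 reads. Beside it, Ttr, the thyroid hormone carrier of the choroid plexus, had 177 against 11255 reads, and the part of plexus tissue in Aqp1 was not tested. Ank1 and Sptb, which tie the membrane to its skeleton, had ratios of 0.733 (0.631 to 0.851) and 0.709 (0.583 to 0.860). Of the genes below the minimum, Rhag, a channel of the Rh complex, had 0 against 5 reads, Epb42 5 against 1, Ermap 16 against 12 and Rhd 9 against 9. The intervals of the ratios reached up to 1.07 for Rhag, 3.03 for Ermap and 2.79 for Rhd, below the interval of Hbb-y, while that of Epb42, 0.550 to 232, included it.

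In the list of iron uptake, enzymes and chaperones, 13 of 22 genes met the minimum, with 3 intervals above 1, 5 below and 5 spanning it, and a median log2 ratio of 0.03. Tfrc, the transferrin receptor, had 1222 against 1023 reads, 1.17-fold higher (1.08 to 1.28). Slc25a37, the mitochondrial iron importer mitoferrin, had 254 against 191 reads, 1.31-fold higher (1.08 to 1.58). Epor, the erythropoietin receptor, had 47 against 31 reads. Car2, a carbonic anhydrase, had 109 against 170 reads and a ratio of 0.630 (0.491 to 0.806). Hemgn had 1 against 2 reads, and Ahsp, the chaperone of free alpha chains, has no row in the table.

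In the list of erythroid transcription factors, 11 of 17 genes met the minimum, with 2 intervals above 1, 2 below and 7 spanning it, and a median log2 ratio of -0.02. Bcl11a and Sox6, which are known to silence embryonic beta-type globin in definitive red cells and which cortical neurons also make, had 5314 against 5292 and 1196 against 997 reads. The Bcl11a counts lay within counting error, and Sox6 was 1.18-fold higher (1.08 to 1.28). Zfpm1, the cofactor of Gata1, and Klf2 had the intervals below 1, with 135 against 180 and 101 against 149 reads and ratios of 0.737 (0.585 to 0.926) and 0.666 (0.512 to 0.863). Ldb1, a bridge between globin enhancers and promoters, had 11082 against 10255 reads, 1.06-fold higher (1.03 to 1.09). Klf1 and Gata1, the factors that define the red cell lineage, were near the limit of counting, with 10 against 10 and 1 against 5 reads. Nfe2 had 15 against 6 reads, with an interval of its ratio from 0.901 to 7.73.

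Beyond hemoglobin, the globins of other tissues lay closer together. Cygb, cytoglobin, had 542 against 457 reads, 1.17-fold higher (1.03 to 1.32), and Ngb, neuroglobin, 26 against 20 reads. Neither gene was near the ratio of Hbb-y.

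Among markers of other cells of blood and vessels, no gene that met the minimum was higher by 2-fold or more in the FOXM1f/+;Nestin-Cre library, where 0.522% of all genes were. Lower by 2-fold or more (1.83% of all genes) were the microglial receptor P2ry12, with 46 against 91 reads, and the collagens Col1a1 and Col1a2, with 31 against 96 and 74 against 185 reads. Platelet and megakaryocyte genes had 10 of 12 members in the table, none at 0, with summed levels of 24.6 CPM in the FOXM1f/+;Nestin-Cre library and 37.4 in WT. Gp1bb and Itga2b, the 2 of them that met the minimum, had intervals below 1, with ratios of 0.615 (0.534 to 0.706) and 0.636 (0.425 to 0.943). Gp1bb alone made up 18.7 and 30.4 CPM of the sums. Below the minimum, Itgb3, Pf4, Ppbp and Gp9 had more reads in the FOXM1f/+;Nestin-Cre library, and Gp1ba, Clec1b, Gp5 and Treml1 fewer. The intervals of these scarce genes all spanned 1. White blood cell genes had 4 of 14 members in the table and summed to 9.01 against 8.78 CPM, and the neutrophil genes S100a8, S100a9, Elane and Mpo have no row in it. Prtn3 alone made up 6.61 and 5.41 CPM of these sums. Ptprc, below the minimum, had 5 against 15 reads and a ratio of 0.328 (0.0931 to 0.948). The intervals of Prtn3, Lyz2 and Cd79a spanned 1. Endothelial genes summed to 273 against 297 CPM, with no interval of 16 above 1 and 5 below, where 16.5% and 19.2% of all genes lay, and a median log2 ratio of -0.17. Microglial genes summed to 64.6 against 75.7 CPM, with none of 12 above 1 and 5 below, and pericyte and meningeal genes to 112 against 144 CPM, with none of 9 above 1 and 5 below. Their part in the globin values was not tested.

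**Figure D5:**
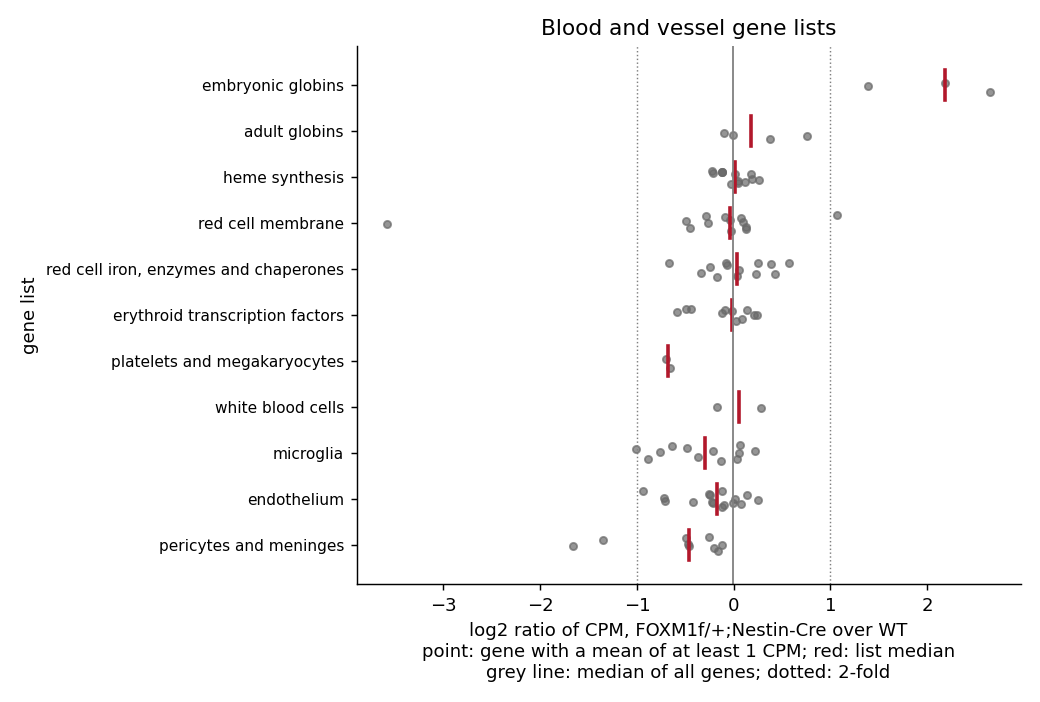
Log2 ratio of CPM, FOXM1f/+;Nestin-Cre over WT, of each gene averaging 1 CPM or more in 11 lists, with list medians in red and the median of all genes as a grey line. The embryonic globins have a median of 2.18, and the adult globins one of 0.18. The embryonic median is the value of Hbb-bh1, with 37 against 8 reads, which met the minimum through the FOXM1f/+;Nestin-Cre library. Lists of other globins, liver and yolk sac, embryonic brain, hypoxia and sex-linked genes are not drawn.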

How the data were processed

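The authors deposited 1 table with a column of raw read counts and a column of CPM for each genotype, per the file headers. Within a column, every CPM is the same multiple of its count, and a count of 0 was entered by the authors as 0.5 reads. Alignment and counting tools named are TopHat2 2.0.12, Bowtie2 2.2.3 and HTSeq 0.6.0, with mm9 as genome, per the submitters' processing notes, while coordinates in the table match GRCm38. The sources used here do not state the strand setting, the annotation or the handling of shared reads. No gene in the table has fewer than 2 reads in all.

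The 9 genes and all lists were chosen with earlier results of these data known. Genes to be named from a list were up to 4 of highest mean CPM and up to 2 with the largest ratio in each direction, and further ones, among them Epor, Klf1, Gata1, Nfe2 and Rhag, were named after their values were seen. Some genes the rule takes are not reported here. Ratios are of CPM with exact conditional 95% intervals, and shares have Clopper-Pearson intervals, in Python 3.11.15 with SciPy 1.17.1. The procedure was tested on simulated data that held counting error only, so that check cannot speak to the spread between embryos. Intervals cover counting error only and take each read as independent. Reads lack molecular identifiers and 1 molecule can give several, so the intervals may be too narrow even for that error. Alternatives were TMM and RLE factors (R 4.3.3, edgeR 4.0.16), other totals, expression minima and folds, and sums of copies.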

Additional observations from a re-analysis of the deposited data

How the results depend on the processing

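The ratios of the 9 genes under TMM factors, RLE factors or a total without globin and red cell genes all stayed within their counting intervals (27 of 27 values), and moved by at most 1.78%. Summing near copies moved 3 ratios, to 1.24 for Hbb-bs and for Hbb-bt and to 1.67 for Hba-a2. The embryonic share of globin reads moved with the genes counted. It was 26.2% and 6.59% in the FOXM1f/+;Nestin-Cre and WT libraries with beta-type globins alone, 4.69% and 3.04% with alpha-type globins alone, and 20.1% and 5.86% per kb of exon, and it was higher in the FOXM1f/+;Nestin-Cre library each time. List medians moved by over 0.1 on the log2 scale in 4 cases. These were the red cell membrane list at a mean of at least 10 CPM (-0.18), the iron, enzyme and chaperone list without a minimum (-0.13), the 9 genes limited to those of 1 CPM or more in each library (0.25) and without globins (0.00377). Genes at least 2-fold higher numbered 892 without a minimum and 6 at a mean of at least 10 CPM, and 369 were at least 1.5-fold higher. The counts of lower genes were 1849, 20 and 762. No paired analysis was possible because the columns carry no replicate numbers. With 1 library per genotype, no library could be left out, and the spread between embryos is not measured. Depth limits Hbb-bh1, Slc4a1 and the red cell genes under 1 CPM.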
